A study of Mus musculus with 6 samples.

Results

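The AP-1 and immediate early genes Fos, Fosb, Fosl2, Jun, Junb, Jund, Egr1, Atf3 and Maff were examined in the enhancer-promoter predictions of cultured mouse oligodendrocyte precursor cells (OPCs). The 9 genes were chosen by name, and all element-gene pairs whose target gene was one of them were taken. Of the 9 genes, 7 were target genes in at least 1 of the 2 prediction tables, among 32049 target genes in all. They accounted for 24 of 66637 pairs in Ctr-OPCs and 33 of 71478 pairs in IFN-γ-OPCs. The cells were primary OPCs from the brains of Sox10-Cre/RCE mouse pups (strain C57BL/6j in the labels) at postnatal day 4 to 6, with brains of both sexes pooled and replicates taken from different litters. Per the methods the RCE parents were of mixed C57BL/6xCD1 background. In this cross Sox10-driven Cre switches on a GFP reporter in the oligodendrocyte lineage, and per the study's methods OPCs were isolated by sorting for GFP or with CD140a beads. All cultures were grown in proliferation medium with bFGF and PDGF-AA, both of them mitogens. Ctr-OPCs stayed in this medium, whereas IFN-γ-OPCs received 100 ng/mL IFN-γ from 24 h after passaging, for 48 h per the methods. The question was which elements are assigned to these genes in each condition and how strongly. H3K27ac-HiChIP, which enriches chromatin contacts of regions carrying this histone mark, was made in 3 libraries per condition, and the activity-by-contact (ABC) model combined it with ATAC-seq and H3K27ac CUT&RUN. Each condition has 1 pooled table, so no value below has a replicate error, no test between conditions was possible and the read depth is unknown.

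Immediate early genes are transcribed within minutes of a growth factor, cytokine or stress signal, without new protein synthesis. FOS and JUN family proteins pair through leucine zippers into AP-1, which binds the AP-1 site, while EGR1 is a zinc finger factor that binds GC-rich sites, ATF3 is a stress-induced partner of JUN proteins, and MAFF is a small MAF protein that pairs with BACH and NRF factors. Many of these genes are themselves controlled through serum response elements, cAMP response elements (CRE) and STAT sites of the GAS type, and mitogens such as those in the OPC medium are known inducers of them.

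The quantities below describe each element. Its activity is a signal computed by the authors from ATAC-seq and H3K27ac coverage over the whole element. Its contact is the frequency, read in 5 kb bins, with which the bin of the element meets the bin of the gene's start site. The ABC score is activity times contact as a fraction of that product added up over every element around the gene, so it is a share within 1 gene. This sum is called the gene total here. A connection is a pair with an ABC score above 0.05, and the tables start at a score of 0.02. Neither table lists an element over the start site that it uses for a member, and each is limited to genes whose promoter activity quantile reached 0.4. The listed scores of a member therefore summed to between 4.56% and 33.0% of its total, and the rest lay in elements that the tables do not show.

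Windows from elements of the members that hold motifs of the AP-1, serum response, CRE or GAS type are printed here (mm10, plus strand). The first 4 span all AP-1 sites (TGANTCA on either strand) found in the members' elements, in capitals. They are shown because these are the genes that encode AP-1, and the Fosb element is one of the connections seen with IFN-γ. The Fosb window lies 17 kb upstream of the start site at chr7:19327137-19327364, in an intron of D830036C21Rik. The Jun windows lie 29 kb downstream at chr4:95023704-95023946, in an intron of Gm12694, and 54 kb upstream at chr4:95105558-95105584, in an intron of the antisense gene Junos. The Junb window lies 7.3 kb upstream at chr8:84985677-84985767 between genes.
Fosb −17 kb: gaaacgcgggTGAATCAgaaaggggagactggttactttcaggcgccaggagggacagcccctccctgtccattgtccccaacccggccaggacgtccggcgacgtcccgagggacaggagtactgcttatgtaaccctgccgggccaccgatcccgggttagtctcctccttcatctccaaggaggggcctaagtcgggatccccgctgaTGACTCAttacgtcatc
Jun +29 kb: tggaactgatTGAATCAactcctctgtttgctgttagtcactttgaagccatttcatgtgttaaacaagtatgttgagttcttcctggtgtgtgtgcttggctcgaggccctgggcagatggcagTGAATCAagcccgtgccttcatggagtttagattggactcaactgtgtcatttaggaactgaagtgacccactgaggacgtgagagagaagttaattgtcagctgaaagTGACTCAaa
Jun −54 kb: ggggactgacTGACTCAtgctgagctg
Junb −7.3 kb: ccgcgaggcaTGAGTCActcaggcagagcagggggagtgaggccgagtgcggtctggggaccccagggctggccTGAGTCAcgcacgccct
The other 4 windows are examples and not all matches of these motifs. They hold a single motif in capitals in an element of high score or activity. These are a GAS (TTCNNNGAA) in the Fos element 1.6 kb upstream of the start site at chr12:85472042-85472070, a CArG box, the core of a serum response element, 12 kb downstream of the Fos start site at chr12:85486104-85486133, a CArG box 2.1 kb downstream of the Junb start site at chr8:84976614-84976643, and a CRE (TGACGTCA) 1.0 kb downstream of the Maff start site at chr15:79347481-79347508.
Fos −1.6 kb: agtggcctatTTCCACGAAtccccgcctc
Fos +12 kb: tccgttctgcCCATATTTGGaaaggcgccg
Junb +2.1 kb: ctgaataggcCCATATATGGgcagagcttc
Maff +1.0 kb: gctggggcggTGACGTCActgcatgact

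Of the 9 members Fos, Jun, Egr1, Fosb and Junb had promoters well above the median of all target genes in both conditions. Promoter activity quantiles were 0.993 and 0.992 for Fos in Ctr-OPCs and IFN-γ-OPCs, 0.990 and 0.999 for Jun, 0.975 and 0.959 for Egr1, 0.885 and 0.891 for Fosb, 0.897 and 0.873 for Junb, and 0.716 and 0.750 for Maff. For the start site that the table used, which is not its only one, Atf3 was listed with IFN-γ at a quantile of 0.673, below the median. That median over all target genes was 0.688 in Ctr-OPCs and 0.686 with IFN-γ. Elements of the members had a median activity of 2.46 in Ctr-OPCs, against 0.866 over all elements, and 2.54 against 0.803 in IFN-γ-OPCs. In Ctr-OPCs 23 of 24 and in IFN-γ-OPCs 31 of 33 of their elements lay above the median of all elements. They also had more pairs per gene than the average target, 4 against 2.58 and 4.71 against 2.69. Their connections lay close to the gene, with a median distance of 1.62 kb in both conditions where all connections had 6.02 and 6.11 kb.

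Fosl2 and Jund, a FOS family and a JUN family gene, were target genes in neither table. No element within 5 kb of either gene body was listed for any target gene. Because a gene is left out when its promoter quantile is low or when no element reaches the lowest score, which of these applied was not tested, and the absence gives no level for them.

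Between the conditions the members went from 7 connections in Ctr-OPCs to 9 in IFN-γ-OPCs. Of the 6 members with a connection in at least 1 table, Fosb and Junb had more connections with IFN-γ, Jun had fewer, and Fos, Egr1 and Maff had the same number. With the power-law score, which replaces measured contact by a function of distance, Fosb had 1 connection in each condition, Jun went from 1 to 2 and Egr1 from 1 to 2, so of these changes the one in Junb alone kept its direction. Over all 12779 genes with a connection, 37.4% had more and 32.5% had fewer. Fos kept 2 connections, Egr1 and Maff 1 each, Fosb went from 1 to 2, Junb from 1 to 3 and Jun from 1 to 0. Of the 7 Ctr-OPC connections 6 (85.7%) overlapped an IFN-γ-OPC connection of the same gene, and of the 9 in IFN-γ-OPCs 6 (66.7%) overlapped one in Ctr-OPCs. The shares over all connections were 49.5% and 46.3%. For all listed pairs, 22 of 24 (91.7%) and 23 of 33 (69.7%) had a counterpart, against 45.8% and 42.8% over all pairs. Over pairs of genes listed in both tables the shares were 55.9% and 53.7%. Among all pairs whose element was more active than the median of the members' pairs, the shares were 54.1% and 52.8%.

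**Figure D1:**
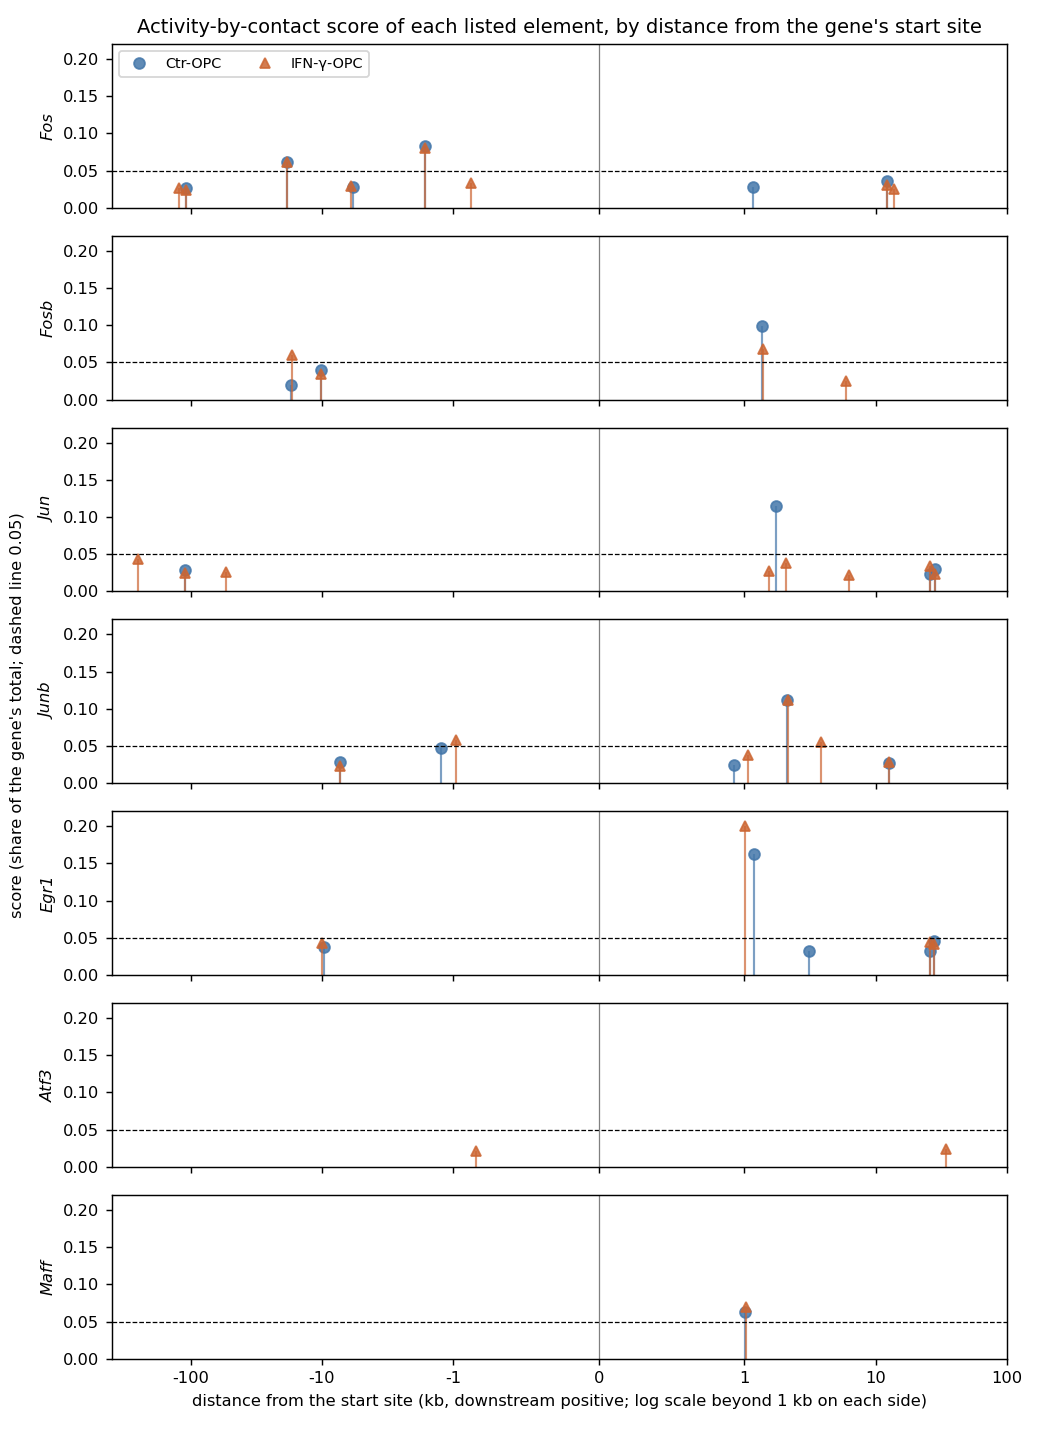
ABC score of every listed element of the 7 listed genes (vertical axis, share of the gene's total) against its signed distance from the gene's start site (horizontal axis in kb, log scale beyond 1 kb on each side), for the pooled Ctr-OPC table (circles) and the pooled IFN-γ-OPC table (triangles), with the 0.05 cut-off dashed. The highest score of Fos, Fosb, Junb, Egr1 and Maff sits within 2.2 kb of the start site in both conditions, and the Jun element at 0.114 in Ctr-OPCs has no IFN-γ-OPC counterpart above the line.

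Among the FOS genes, Fos (chr12:85473890-85477273, plus strand), whose protein is the classical partner of JUN, had 6 listed elements in Ctr-OPCs and 8 with IFN-γ. Its connections in both conditions were the element 1.6 kb upstream, with a score of 0.0828 in Ctr-OPCs and 0.0804 with IFN-γ, and the element 18 kb upstream, with 0.0618 and 0.0611. Both lie between genes. The distal one was the more active, at 4.60 and 4.26, while the proximal one had an activity of 2.67 and 2.54. The GAS printed above is in the proximal element, and none of the 6 motifs searched was found in the distal one. The element 12 kb downstream, which carries the CArG box, scored 0.0355 and 0.0302 with an activity of 3.79 and 3.10. An element 107 kb upstream in an intron of Tmed10 was listed in both tables, at 0.0262 and 0.0242, and scored higher there for Tmed10 than for Fos. Elements 0.87 kb upstream, 14 kb downstream and 123 kb upstream were listed for Fos with IFN-γ only, at scores of 0.0339, 0.0247 and 0.0263. One in its coding exon, 1.2 kb downstream, was listed in Ctr-OPCs only, at 0.0281. The element 123 kb upstream was in the Ctr-OPC table for other genes, with an activity of 3.03 against 3.83 with IFN-γ. With IFN-γ it scored 0.266 for Gm47820.

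Fosb (chr7:19302696-19310051, minus strand), a paralogue of Fos, had its strongest element 1.4 kb downstream of the start site, in an annotated exon outside the coding sequence and UTRs. Its activity was 2.50 in Ctr-OPCs and 2.55 with IFN-γ, its contact was 0.0585 and 0.0349, and its score was 0.0987 and 0.0675. The score was thus lower with IFN-γ while the activity was nearly the same. With IFN-γ this element scored higher for Gm26802, at 0.0799. The element 17 kb upstream, with the AP-1 sites printed above, went from a score of 0.0201 to 0.0594 and became the other connection. Its activity was 1.30 and 2.62, but it was 500 bp wide in Ctr-OPCs and 1108 bp in IFN-γ-OPCs, and per base pair its log2 ratio was -0.14. It scored higher for the gene Gm44698 than for Fosb in both tables. The element 10 kb upstream, in an exon of D830036C21Rik, had an activity of 1.63 and 1.74 and a score of 0.0402 and 0.0339. An element of 818 bp over the Fosb UTR, 5.9 kb downstream, was listed for Fosb with IFN-γ only, at an activity of 1.17 and a score of 0.0244, while a 500 bp element at its place was in the Ctr-OPC table, though not for Fosb, with an activity of 0.713.

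Among the JUN genes, Junb (chr8:84974484-84978718, minus strand), which encodes a JUN protein with weaker transactivation than JUN itself, had the most connections with IFN-γ. The element 2.1 kb downstream, which holds a CArG box, a GAS and an EGR core, was a connection in both tables with scores of 0.111 and 0.112, activities of 3.13 and 2.97, and contacts of 0.0698 and 0.0759. These values were close to each other, and no other target gene of the element scored higher. The element 1.2 kb upstream crossed the cut-off, from 0.0471 to 0.0575, with an activity of 1.32 over 500 bp in Ctr-OPCs and 1.52 over 882 bp with IFN-γ. Per base pair its log2 ratio was -0.62, so that the direction turned. An element of 1244 bp at 3.9 kb downstream, over a Junb exon and the UTR of the neighbouring gene Prdx2, was listed with IFN-γ at a score of 0.0560 and an activity of 2.92. It scored higher, at 0.0884 each, for Prdx2, Rnaseh2a and Gm49661. No overlapping element was in the Ctr-OPC table for any gene. Within the coding exon, 0.93 kb downstream, activity was 0.694 in Ctr-OPCs and 1.01 with IFN-γ at equal width, a log2 ratio of 0.55. The element 7.3 kb upstream with a pair of AP-1 sites had an activity of 1.29 over 671 bp and 0.848 over 500 bp, and a score of 0.0289 and 0.0228. The element 13 kb downstream, over a coding exon and UTR of Rnaseh2a, had an activity of 2.43 and 2.06 and a score of 0.0270 and 0.0280, and it scored higher for Rnaseh2a and Prdx2 than for Junb in both tables.

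Jun (chr4:95049034-95052222, minus strand), which encodes the JUN subunit of AP-1, had the only lost connection among the members. In Ctr-OPCs an element of 1003 bp over its coding exon and UTR, at chr4:95049983-95050985, had an activity of 3.17 and a score of 0.114. In IFN-γ-OPCs the same stretch was listed as 2 elements of 500 bp, with activities of 1.39 and 1.02 and scores of 0.0384 and 0.0281. Neither passed the cut-off by itself. Joined, they had an activity of 2.41 and a score of 0.0665, so that with overlapping elements joined Jun had 1 connection in each condition and no member had fewer. Contact at the matched pair of elements was 0.0248 and 0.0202. The activity over the joined stretch was therefore lower with IFN-γ by 0.39 on the log2 scale.

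**Figure D2:**
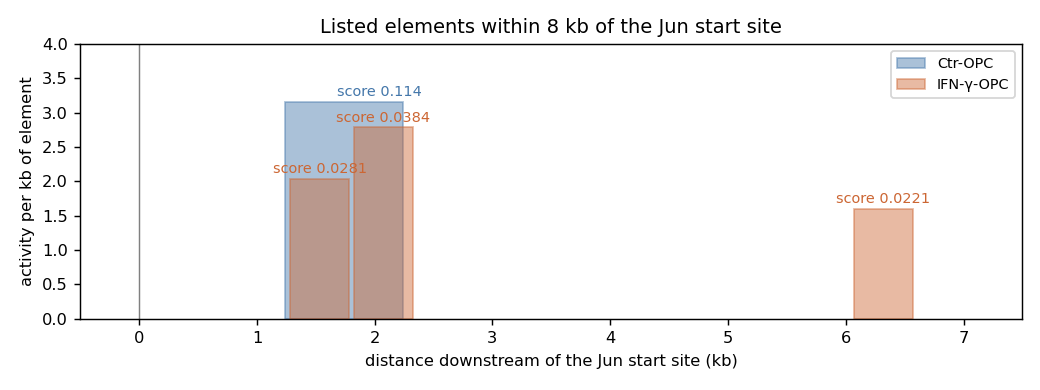
Listed elements of Jun within 8 kb of its start site in the pooled Ctr-OPC table (blue) and the pooled IFN-γ-OPC table (orange). Bars span the element (horizontal axis, kb downstream of the start site) and their height is activity per kb of element, with the ABC score written above each. The Ctr-OPC element of score 0.114 covers nearly the same stretch as the 2 IFN-γ-OPC elements of scores 0.0384 and 0.0281.

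Away from its gene body the activity of the matched Jun elements was higher with IFN-γ. The element 109 kb upstream, over an exon of Junos, had an activity of 2.78 in Ctr-OPCs and 3.93 with IFN-γ, those 26 and 29 kb downstream had 1.44 and 2.09, and 1.75 and 2.27. All of them were 500 bp wide in both tables. Their scores stayed between 0.0232 and 0.0340, below the cut-off. An element 251 kb upstream, between genes, was listed with IFN-γ at an activity of 4.70 and a score of 0.0430, and had no overlapping element in the Ctr-OPC table for any gene. The element 54 kb upstream had an activity of 3.38 over 909 bp with IFN-γ. Its stretch was present in Ctr-OPCs for other genes, where the more active of its elements had 1.30. Contacts of Jun with these distal bins were low, at 0.00460 to 0.0120 in both tables. Each Jun element was also listed for the antisense gene Junos with the same score, so the pair cannot be told apart. Each of these distal elements also scored higher for a gene other than Junos than for Jun, in every table listing it for Jun. With IFN-γ the highest score was for Gm28096 at the elements 54 and 109 kb upstream. It was for Gm12704 at those 26 and 29 kb downstream, and for Gm29064 at the one 251 kb upstream. Their activity is therefore not assigned to Jun and Junos alone. An element 6.3 kb downstream was listed for Jun with IFN-γ only, at an activity of 0.801 and a score of 0.0221, and its place was in the Ctr-OPC table, though not for Jun, at an activity of 0.458.

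Egr1 (chr18:34859823-34864984, plus strand), which encodes the zinc finger factor EGR1, had the highest score of the group. Its element 1.2 kb downstream, over the UTR, scored 0.163 in Ctr-OPCs and 0.201 with IFN-γ, with an activity of 6.35 over 500 bp and 7.21 over 829 bp and a contact of 0.0448 and 0.0441. Its log2 ratio of activity was 0.18 as a sum and -0.54 per base pair. This was the most active element of any member in both conditions, and 5 CArG boxes were found in it. Its distance is from the start site that the tables use. Whether it covers the promoter of another Egr1 start site was not tested. Elements 26 and 28 kb downstream had activities of 2.70 and 3.83 in Ctr-OPCs and 3.59 and 3.32 in IFN-γ-OPCs, with scores between 0.0327 and 0.0463. The element 9.6 kb upstream had an activity of 1.22 over 500 bp and 2.70 over 1082 bp, and it contains a CRE in its wider IFN-γ-OPC form. Its score was 0.0382 and 0.0430. An element of 762 bp in the coding exon was listed in Ctr-OPCs only, with an activity of 1.28 and a score of 0.0328.

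Maff (chr15:79346621-79359076, plus strand) and Atf3 (chr1:191170296-191218039, minus strand) had few elements. The single Maff element, over its UTR 1.0 kb downstream, scored 0.0634 in Ctr-OPCs and 0.0694 with IFN-γ, with an activity of 2.64 and 2.88. It overlaps the annotated promoter of another RefSeq start site of Maff. It holds the CRE printed above, a GAS and an EGR core. Atf3 was listed with IFN-γ only, through an element 0.84 kb upstream with an activity of 0.338 and a score of 0.0214, and one 35 kb downstream over an Atf3 UTR with an activity of 2.12 and a score of 0.0242. The latter covers the annotated promoter of a RefSeq start site of Atf3 other than the one the table used. Its place had an element in Ctr-OPCs too, with an activity of 2.58 over 659 bp, which was listed there for other genes and not for Atf3. Neither Atf3 score is far above the lowest listed score of 0.02, and no element of Atf3 was a connection.

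Of 10 IFN-γ-OPC pairs without a counterpart for the same gene, 5 had an overlapping element in the Ctr-OPC table under other target genes and 5 had none. Of the 2 unmatched Ctr-OPC pairs, in the bodies of Fos and Egr1, neither had one. The same split over all unmatched pairs was not computed, so these counts have no background beside them. The elements were shared with neighbouring genes to different degrees, and not every element that scored higher for another gene is named here. Counted over both tables, the protein-coding gene with the most elements in common was Tmed10 for Fos (10 of 14 listed pairs), Ercc1 for Fosb (7 of 7), Fggy for Jun (5 of 12), Hook2 for Junb (8 of 11), Reep2 for Egr1 (7 of 9), Fam71a for Atf3 (1 of 2, equal with Batf3, whose start site is farther away) and Pla2g6 for Maff (1 of 2).

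The gene total, which adds up all elements including those not listed, was 1.73 in Ctr-OPCs and 1.63 with IFN-γ for Fos, 1.48 and 1.32 for Fosb, 0.688 and 0.734 for Jun, 1.96 and 2.01 for Junb, 1.75 and 1.58 for Egr1, and 2.28 and 2.00 for Maff. For Atf3 it was 0.957 with IFN-γ. As log2 ratios of IFN-γ-OPC over Ctr-OPC these were -0.09, -0.17, 0.09, 0.04, -0.14 and -0.18 in the same order. None of the 6 ratios passed 1.5-fold, a change that 0.615% of 20321 genes passed upwards and 0.118% downwards. The median of the 6 was -0.11, beside -0.07 over all genes with an SD across genes of 0.19. A total computed from activity and a power law of distance, without the measured contact, gave Jun a log2 ratio of -0.11, so its direction rests on the contact. The Jun total was low in rank, above 40.0% of genes in Ctr-OPCs and 44.6% with IFN-γ, while its promoter was among the most active. Fos, Fosb, Junb, Egr1 and Maff lay above at least 83.3% of genes in both tables.

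**Figure D3:**
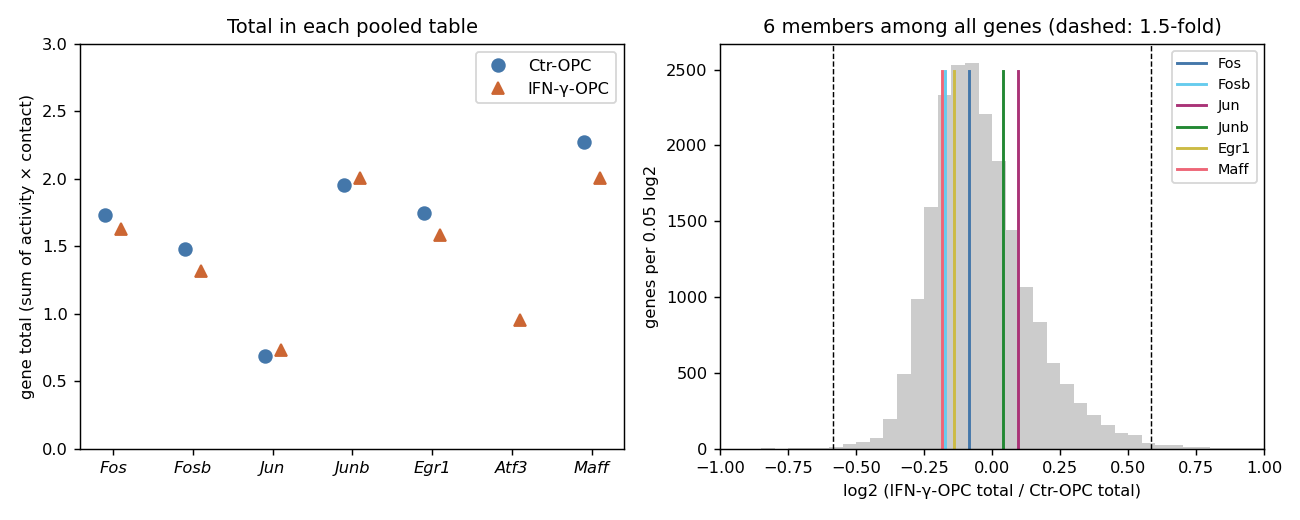
Left, gene total (the products of activity and contact, added up for the gene) of the 7 listed genes in the pooled Ctr-OPC table (circles) and the pooled IFN-γ-OPC table (triangles). Right, log2 ratio of the totals for all 20321 genes in both tables (grey histogram) with the 6 members as coloured lines between -0.18 and 0.09, inside the dashed 1.5-fold limits.

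The 22 matched elements of the members showed where the activity moved. More than 1.5-fold higher activity with IFN-γ was seen in 2, the Egr1 element 9.6 kb upstream and the Fosb element 17 kb upstream, and more than 1.5-fold lower activity in 2, the Jun element over its coding exon and the Junb element 7.3 kb upstream. Over 17223 matched elements 9.26% were higher and 13.6% lower by this measure. Each of these 4 had a different width in the 2 tables, and activity is summed over the width. Among the 16 matched elements of the members that were 500 bp in both tables, 0 passed 1.5-fold in either direction, on the activities as deposited, with log2 ratios from -0.29 for the Fos element 12 kb downstream to 0.55 for the Junb element in the coding exon. Over all 8850 such elements 9.47% passed. Over the 1784 of them whose Ctr-OPC activity exceeded the members' median, 3.20% did. These counts depend on the scale between the tables, which is not stated. With activities divided by each table's median, which had a log2 ratio of -0.11, 3 of the 16 were past 1.5-fold higher, the Junb element in the coding exon (0.65) and the Jun elements 26 kb downstream (0.64) and 109 kb upstream (0.61), beside 8.06% of all elements of equal width, and the Junb element 7.3 kb upstream was no longer past 1.5-fold lower. Per base pair, 0 members' elements were more than 1.5-fold higher and 2 were lower, those of Jun over its coding exon and of Junb 1.2 kb upstream, where over all 17223 matched elements 7.65% were higher and 5.23% lower per base pair. The Jun call, summed and per base pair, takes 1 of the 2 IFN-γ-OPC elements of that stretch, and with both joined the log2 ratio of -0.39 did not pass 1.5-fold. Over the 22 elements the median log2 ratio was -0.07 per base pair where it was 0.06 for the sum.

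Contact was more than 1.5-fold lower with IFN-γ in 4 of 22 matched pairs and higher in 0, beside 8.33% lower and 12% higher over 29858 matched pairs. The 4 were the Fosb element 1.4 kb downstream (log2 ratio -0.75), the Jun elements 29 kb downstream (-0.61) and 109 kb upstream (-0.61), and the Egr1 element 9.6 kb upstream (-1.11). The wider Egr1 element had its centre in another 5 kb bin than its Ctr-OPC counterpart, whereas the other 21 pairs stayed in the same bin. In Junb the 3 elements nearest the start site lay in 1 bin and shared 1 contact value, so their contacts are not separate measurements. Some elements of Fos, Jun and Egr1 shared a contact value too. The Egr1 elements 26 and 28 kb downstream had 0.0211 in Ctr-OPCs and 0.0198 with IFN-γ. The strongest elements of Fos, Junb and Maff and the Jun element over its coding exon lay in the bin of the start site itself. The median log2 ratio of contact was -0.05, beside 0.05 over all matched pairs.

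**Figure D4:**
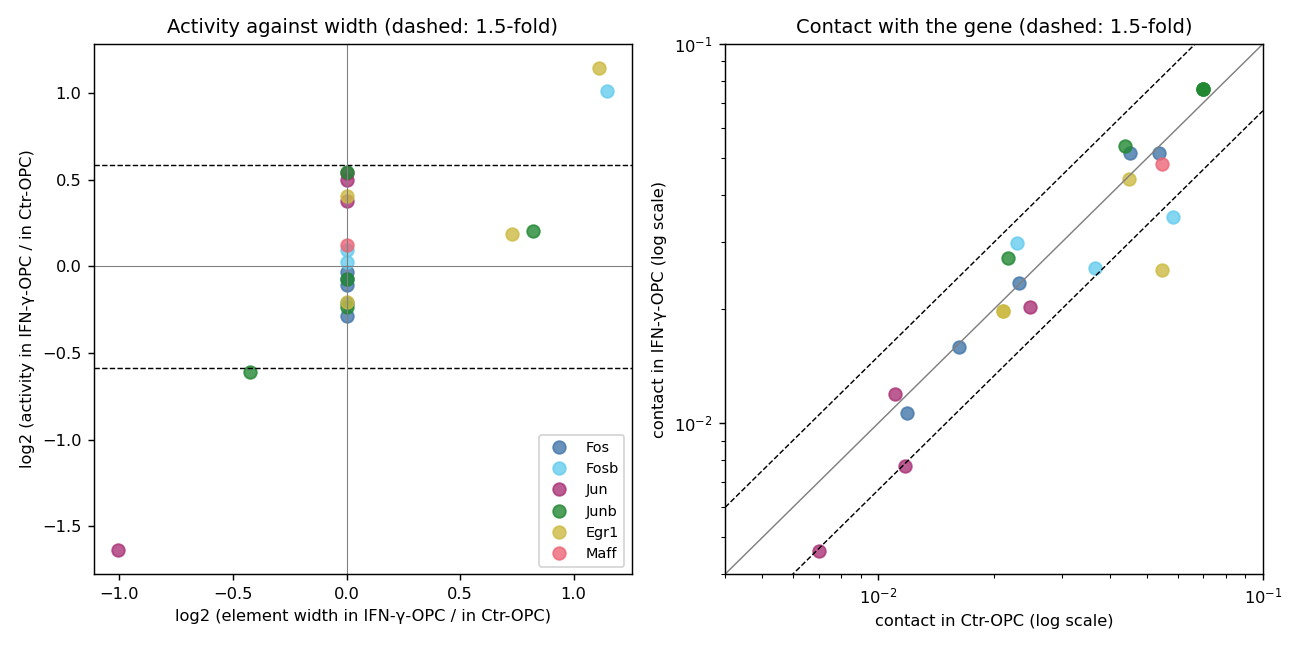
Left, log2 ratio of activity (vertical axis, IFN-γ-OPC over Ctr-OPC) against log2 ratio of element width for the 22 matched elements, coloured by gene. With activities as deposited, all points beyond the dashed 1.5-fold lines lie away from a width ratio of 0. Right, contact in IFN-γ-OPCs against contact in Ctr-OPCs on log scales for the same pairs, with equality in grey and 1.5-fold dashed. The 4 points below the lower dashed line belong to Fosb, Jun and Egr1.

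Sequence features were counted once for each of the 34 stretches that the members' elements form when overlapping elements are joined. Both strands were searched. The AP-1 and CRE strings cannot share letters in 1 place, whereas a GAS and an ISRE core both end in GAA and can overlap. An AP-1 site was found in 4 stretches, a CRE in 2, a GAS in 7, an ISRE core (GAAANNGAA) in 7, an EGR core (GCGGGGGCG or GCGTGGGCG) in 6 and a CArG box in 4, while 14 had none. Against all elements of 500 bp in the same table, members' elements of 500 bp held an AP-1 site in 9.52% (2 of 21) in Ctr-OPCs, beside 14.6%, and in 8% (2 of 25) in IFN-γ-OPCs, beside 17.0%. EGR cores were found in 19.0% beside 1.88% and in 16.0% beside 1.49%, and CArG boxes in 19.0% beside 2.50% and in 8% beside 2.52%. The lower CArG share with IFN-γ reflects element borders. The Egr1 element with 5 CArG boxes is 829 bp wide there and not counted. The Junb element 1.2 kb upstream is 882 bp wide there and ends before its CArG box. For GAS the shares were 23.8% beside 14.6% and 28.0% beside 15.7%, and for the ISRE core 19.0% beside 14.3% and 24.0% beside 18.3%. A CRE was in 4.76% beside 0.842% and in 4% beside 0.813%. The members' elements were also richer in GC, with a median of 61.4% and 58.6% where all had 50.2% and 49.4%, and the part of base composition in these shares was not tested. A match of letters is not a bound site.

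No related gene with both totals, of 40, passed 1.5-fold. The counts of higher and lower totals that follow stand beside a higher total in 35.7% of all 20321 genes. Of 15 other AP-1, MAF, BACH and ATF family genes 6 had a total in both tables, with 4 higher and 2 lower and a median log2 ratio of 0.04. Bach1, a repressor that pairs with small MAF proteins, had a total of 0.713 and 0.819 (log2 ratio 0.20). It was followed by Bach2 at 0.13 and Nfe2l2, which encodes NRF2, at 0.05, while the small MAF gene Mafk and Atf7 were both at -0.15. Batf2, which encodes an interferon-responsive partner of JUN proteins, was listed with IFN-γ only, with a promoter quantile of 0.982. Jdp2 was also listed with IFN-γ only (0.886), and Fosl1 and Maf were listed in Ctr-OPCs only (0.747 and 0.718), so that 8 of the 15 were listed in each table. Of 30 other immediate early and early response genes 25 had both totals, 5 higher and 20 lower, with a median of -0.11. The largest ratios were those of Ccn2 (0.25), Myc (0.08) and Nr4a2 (0.05) on the higher side and of Nr4a3 (-0.36), Ier2 (-0.29) and Per1 (-0.21) on the lower side. With the power-law total the ratios of Ccn2, Myc and Nr4a2 turned to -0.07, -0.09 and -0.22. Of 13 kinases and factors upstream of these genes 9 had both totals, 2 higher and 7 lower, with a median of -0.09. Here the higher ones were Mapk9 and Elk3 (both 0.03), of which Elk3 turned to -0.14 with the power-law total, and the lowest were Map2k2 (-0.30), Elk1 (-0.20) and Mapk14 (-0.15). These genes had 25 connections in Ctr-OPCs and 27 with IFN-γ, and of 22 with a connection 5 had more and 3 fewer, beside 37.4% and 32.5% over all genes with a connection.

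The cell identity was checked against marker genes. All 8 OPC markers, Pdgfra, Cspg4, Olig1, Olig2, Sox10, Ptprz1, Nkx2-2 and Gpr17, were target genes in both tables, with median promoter quantiles of 0.928 and 0.937. Of 7 microglia markers 3 were listed in Ctr-OPCs and 5 with IFN-γ, with median quantiles of 0.621 and 0.625, and Aif1 and Tmem119 were among those listed with IFN-γ only. The microglia markers Itgam and C1qa were listed in neither table. Of 4 astrocyte markers 3 were listed in both tables, of 3 neuron markers all, and of 2 endothelial markers 0 in Ctr-OPCs and 2 with IFN-γ. Median quantiles were 0.771 and 0.778 for the listed astrocyte markers and 0.777 and 0.764 for the neuron markers. These lay above the medians of 0.688 and 0.686 over all target genes. The endothelial markers had 0.441 with IFN-γ. Being a target gene is not a level of expression, and the part of other cell types in the members' values was not tested.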

How the data were processed

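H3K27ac-HiChIP libraries, 3 of Ctr-OPCs and 3 of IFN-γ-OPCs, were grouped by the treatment in the labels, which name 1 table for the 3 libraries of each. Per the study's methods, the authors aligned reads to mm10 with HiC-Pro and ran the ABC model on these contacts with bulk ATAC-seq and CUT&RUN for H3K27ac, with default parameters for the candidate elements and their activity. The deposited tables hold activity as a signal, the ABC score and the promoter quantile as a fraction, and the power-law score, the contact and the activity-contact product as score values in the model's units. How activity and contact were scaled between conditions is not given in the sources used here. The shorter tables hold the same pairs.

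Gene symbols came from GENCODE M21. Gene totals were the product divided by the ABC score. Elements were matched by mutual best overlap of at least 1 bp with the same target. Ratios past 1.5-fold were counted beside all genes or elements. Motifs were searched in the GRCm38.p6 (mm10) genome, and coordinates are 1-based. The 9 genes, the related lists and the markers were chosen with earlier results of these data known. All 9 genes were named, and of each related list up to 3 genes with the largest rise and up to 3 with the largest fall in total, with Bach1 and Batf2. Alternatives were other score cut-offs, the power-law score, equal numbers of connections, rescaling to the table median, a reciprocal overlap of 50% and elements that are connections. After seeing the data, joined elements, equal widths, activity per base pair and power-law totals were added. Procedures were tested on simulated data. Python 3.11.15, pandas 2.3.3, NumPy 2.4.6 and pysam 0.24.0 were used.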

Additional observations from a re-analysis of the deposited data

How the results depend on the processing

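The 7 and 9 connections of the members in Ctr-OPCs and IFN-γ-OPCs became 24 and 33 with every listed pair and 3 and 2 with the 0.1 cut-off. The 2 members with more connections became 5 and 0 under these settings, where 42.4% and 35.8% of all genes with a connection had more, and the 1 member with fewer became 0 with the power-law score and 0 with overlapping elements joined. The change in Jun, -1, turned to 4 over all pairs and to 1 with the power-law score. The change in Fosb, 1, became 0 with the power-law score, and that in Egr1, 0, became 1 there and -1 over all pairs. The 6 shared connections in each table became 22 and 23 over all pairs, and 2 and 2 with the 0.1 cut-off. Median distances became 8.43 and 9.94 kb over all pairs. With the power-law total, 1 member had a higher total and Jun turned to -0.11. The median log2 activity of 0.06 became 0.17 with activities divided by the table median, -0.0034 with a reciprocal overlap of at least 50%, -0.0034 at equal width and -0.073 per base pair. Elements past 1.5-fold, 2 higher and 2 lower, became 5 and 1 after division by the table median, 0 and 1 with the reciprocal overlap, 1 and 1 among connections, 0 and 0 at equal width, 3 and 0 at equal width after division by the table median, and 0 higher per base pair. Among the 10 stretches with a connection in either condition, 1 held an AP-1 site, 1 a CRE, 3 a GAS, 2 an ISRE core and 3 an EGR core. Joined elements, equal widths (with and without division by the median), activity per base pair and power-law totals were chosen after seeing the data. No paired analysis was possible because each condition is 1 pooled table, and for the same reason no library could be left out. Without replicates or depth, neither the members' changes nor their absence can be told from the variation between libraries.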
